A study of Rattus norvegicus with 12 samples.

Results

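The genes described are 9 members of the Hippo pathway and its transcriptional output, chosen by name: the coactivator genes Yap1 and Wwtr1, the DNA-binding partner genes Tead1, Tead3 and Tead4, the kinase gene Lats2, the scaffold gene Amotl2, and the target genes Ccn2 (formerly Ctgf) and Ccn1 (formerly Cyr61). Of these 9, 8 had a probe set, 1 each, among the 14507 genes of the array with exactly 1 symbol, and Tead4 was not analysed here. The 12 arrays measured total RNA of neonatal rat cardiac myocytes (Sprague Dawley) in 4 groups of 3: p300 siRNA (p300kd) cells after 8 h of 1 µM doxorubicin (Dox), non-silencing siRNA (NS) cells after 8 h of Dox, p300kd cells at 0 h, and NS cells at 0 h. Dox is an anthracycline that intercalates into DNA and traps topoisomerase II, and p300, encoded by Ep300, is a histone acetyltransferase and transcriptional coactivator. All cultures came from preparations labelled as over 90% myocytes, had bromodeoxyuridine at 0.1 mM for the first 4 days to hold back fibroblasts, and spent 48 h without serum. The 8 h cultures had no untreated partners of the same age, so drug and time cannot be told apart. The study's design text gives 3 different experiments, and the replicate number of an array is called its experiment here.

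In the Hippo pathway the kinases encoded by Lats1 and Lats2 phosphorylate YAP (from Yap1) and TAZ (from Wwtr1), which keeps both in the cytoplasm and favours their breakdown. Unphosphorylated YAP and TAZ enter the nucleus and bind TEAD proteins, the DNA-binding factors through which they switch on genes such as Ccn1 and Ccn2. Both CCN genes encode secreted matrix-associated proteins, and CCN2, first named connective tissue growth factor, is known for its rise in cardiac fibrosis. Amotl2 encodes an angiomotin-like scaffold that holds YAP and TAZ at cell junctions and is itself a reported YAP target in human and mouse cells. In the newborn rodent heart, YAP with TEAD1 is known to promote myocyte proliferation. Arrays measure RNA only, so phosphorylation and location of these proteins were not measured.

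Windows around the start sites of 6 of the 9 genes were given by RefSeq (assembly GRCr8), each holding 250 bases before the start and 50 after it. The 4 windows printed here belong to the 4 genes whose RNA was lower after Dox, and each holds CATTCC, the core of the sequence that TEAD proteins bind. Capitals mark CATTCC or, where it lies on the opposite strand, GGAATG, and bases are counted from 1 at the 5′ end of the window. The Ccn2 window (chr1:22624565-22624864, minus strand) held it 3 times, from bases 85, 150 and 159. The Ccn1 window (chr2:237225640-237225939, minus strand) held it from base 138, the Amotl2 window (chr8:112182376-112182675, plus strand) from base 175, and the Yap1 window (chr8:13451388-13451687, minus strand) from base 135.
Ccn2: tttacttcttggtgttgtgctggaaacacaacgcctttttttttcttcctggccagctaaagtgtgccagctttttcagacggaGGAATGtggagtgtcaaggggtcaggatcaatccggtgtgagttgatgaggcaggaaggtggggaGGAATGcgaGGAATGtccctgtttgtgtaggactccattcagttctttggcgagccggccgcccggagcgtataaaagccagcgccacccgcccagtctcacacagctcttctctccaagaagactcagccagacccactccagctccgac
Ccn1: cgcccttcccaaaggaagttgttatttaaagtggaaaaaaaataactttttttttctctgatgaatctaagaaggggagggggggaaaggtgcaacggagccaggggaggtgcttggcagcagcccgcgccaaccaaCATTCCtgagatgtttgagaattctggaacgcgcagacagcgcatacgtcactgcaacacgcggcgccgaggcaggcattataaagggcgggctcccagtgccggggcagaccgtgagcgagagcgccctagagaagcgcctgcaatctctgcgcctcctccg
Amotl2: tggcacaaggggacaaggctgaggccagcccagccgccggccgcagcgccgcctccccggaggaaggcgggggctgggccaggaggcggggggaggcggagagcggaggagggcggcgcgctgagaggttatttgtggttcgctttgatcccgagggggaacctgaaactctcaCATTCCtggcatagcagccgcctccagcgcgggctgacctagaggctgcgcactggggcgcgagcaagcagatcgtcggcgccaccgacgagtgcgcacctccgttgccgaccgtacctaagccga
Yap1: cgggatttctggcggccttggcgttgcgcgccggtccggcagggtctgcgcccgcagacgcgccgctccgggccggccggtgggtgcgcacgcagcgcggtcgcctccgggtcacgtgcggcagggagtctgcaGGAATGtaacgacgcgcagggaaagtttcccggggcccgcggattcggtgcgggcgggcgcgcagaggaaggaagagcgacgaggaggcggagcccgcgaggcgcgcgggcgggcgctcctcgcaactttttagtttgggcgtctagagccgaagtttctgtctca

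The windows of Wwtr1 and Tead3 held no CATTCC on either strand, and no window was given for Tead1, Lats2 or Tead4. Of 14 windows of other genes reported as YAP or TAZ targets, 2 held CATTCC. They belong to Thbs1, which fell after Dox in both siRNAs, and Nuak2, which rose in NS cells. Among all 33469 windows of the RefSeq table, 14.2% held CATTCC on either strand and 1.24% held it more than once. Over genes of the array with a window, 11.5% of those that fell after Dox in p300kd cells held it, against 10.9% of those that rose and 13% of those not called. In NS cells these shares were 10.9% of those that fell, 11.2% of those that rose and 13% of those not called. A second sequence, TGANTCA, bound by AP-1 factors that often act beside TEADs, was in none of the 6 windows and in 7.33% of all windows. A match describes letters in the window and does not show binding.

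After 8 h of Dox, RNA of both CCN genes, of Amotl2 and of Yap1 was lower in p300kd and in NS cells. That of Wwtr1, Tead1, Tead3 and Lats2 did not pass the test in a fit without a block for the experiment. When arrays were compared within an experiment (a fixed block), Tead3 passed as lower in both siRNAs and Tead1 in NS cells. A random block for the experiment called, among these genes, Tead1 in NS cells alone. Ccn2 fell most, to 34.6% of its 0 h level in p300kd cells and 39.5% in NS cells. Amotl2 fell to 50.6% and 51.3%, Ccn1 to 54.4% and 56.7%, and Yap1 to 65.5% in both, in the same order of siRNA. By limma with an adjusted p under 0.05, 4 of 8 members fell and 0 rose in p300kd cells, where 17.5% of all genes fell, 13.9% rose and 31.4% were called in either direction. The counts were also 4 and 0 of 8 in NS cells, where 16.4% of all genes fell, 11.2% rose and 27.5% were called. The median change of the 8 members was -0.40 in p300kd cells and -0.41 in NS cells on the log2 scale, against 0.04 over all genes in both. No member passed between p300kd and NS cells at either time. Changes are differences of mean log2 intensity between groups of 3 arrays, given with their standard error (SE) or 95% interval, and n is 3 arrays per group throughout. RNA was taken from whole cultures, in which fewer cells of a type and less RNA per cell cannot be told apart.

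**Figure D1:**
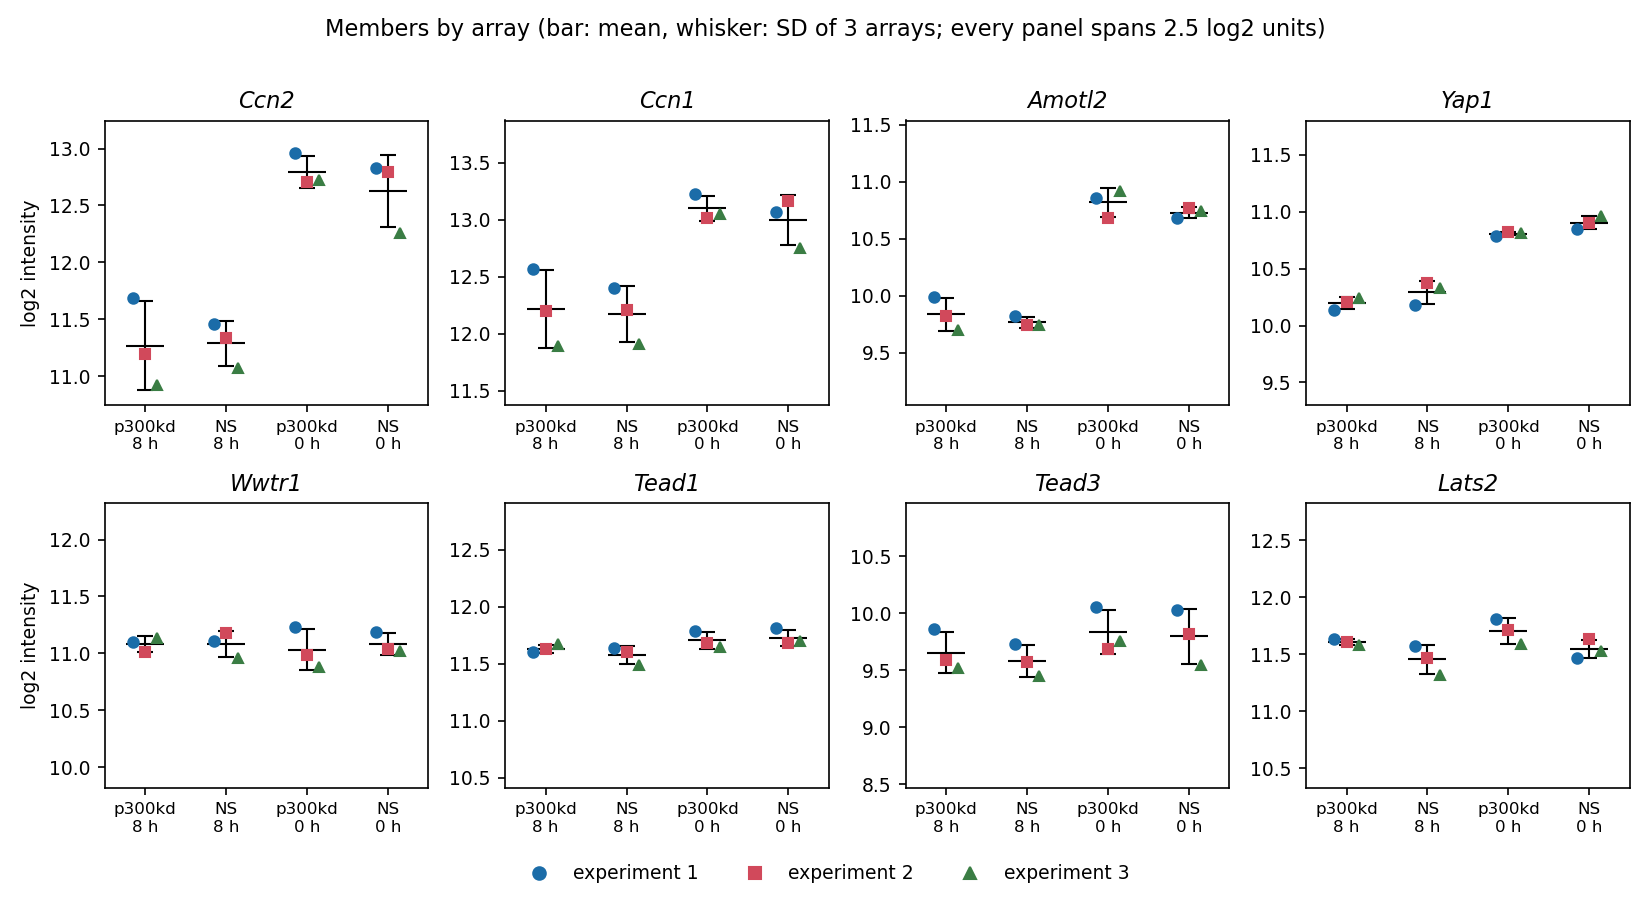
Log2 intensity of the 8 measured members in each of the 12 arrays, by group, with the mean and SD of 3 arrays as bar and whisker and the experiment as symbol; all panels span 2.5 log2 units. Yap1, Amotl2, Ccn2 and Ccn1 lie lower in the 8 h groups than in the 0 h groups, without overlap within an siRNA. Tead1 does so in NS cells only, and the 8 h and 0 h groups of Wwtr1, Tead3 and Lats2 overlap.

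Yap1 (probe set 10914811, rat chromosome 8) encodes YAP, the main coactivator restrained by the Hippo kinases. In experiments 1 to 3 its log2 intensity was 10.14, 10.21 and 10.24 in p300kd cells at 8 h, against 10.79, 10.82 and 10.81 in p300kd cells at 0 h. In NS cells it was 10.18, 10.37 and 10.33 at 8 h, against 10.85, 10.90 and 10.96 at 0 h. All 6 arrays at 8 h were below all 6 at 0 h. Within an siRNA, all 3 arrays at 8 h were below all 3 at 0 h for 21.6% of all genes in p300kd cells and 21.2% in NS cells. Yap1 fell by 0.61 in p300kd cells (SE 0.0743, adjusted p 6.32e-05) and by 0.61 in NS cells (SE 0.0743, adjusted p 7.44e-05). The change was negative in all 3 experiments of both siRNAs, between -0.65 and -0.57 in p300kd cells and between -0.66 and -0.53 in NS cells.

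Wwtr1 (probe set 10823284, chromosome 2) encodes TAZ, the paralogue of YAP that shares its TEAD partners. Its log2 intensity was 11.10, 11.01 and 11.14 in p300kd cells at 8 h, against 11.23, 10.99 and 10.88 in p300kd cells at 0 h. NS cells had 11.11, 11.18 and 10.96 at 8 h, against 11.19, 11.04 and 11.02 at 0 h. The groups overlapped throughout. The Dox change was 0.05 in p300kd cells (95% interval -0.16 to 0.26, adjusted p 0.735) and 0.00 in NS cells (-0.21 to 0.21, adjusted p 1). These intervals leave room for small changes in either direction and lie apart from those of Yap1, which were -0.77 to -0.45 in both siRNAs.

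Within each array, the log2 ratio of Yap1 to Wwtr1 was set relative to its mean in NS cells at 0 h. The ratio stood at -0.78, -0.62 and -0.72 in p300kd cells at 8 h, against -0.26, 0.01 and 0.11 in p300kd cells at 0 h. In NS cells it stood at -0.74, -0.63 and -0.45 at 8 h, against -0.16, 0.04 and 0.12 at 0 h. The 6 arrays at 8 h thus all had less Yap1 relative to Wwtr1 than any of the 6 arrays at 0 h. This ratio and those given further on were chosen after the values were seen and have no test.

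**Figure D2:**
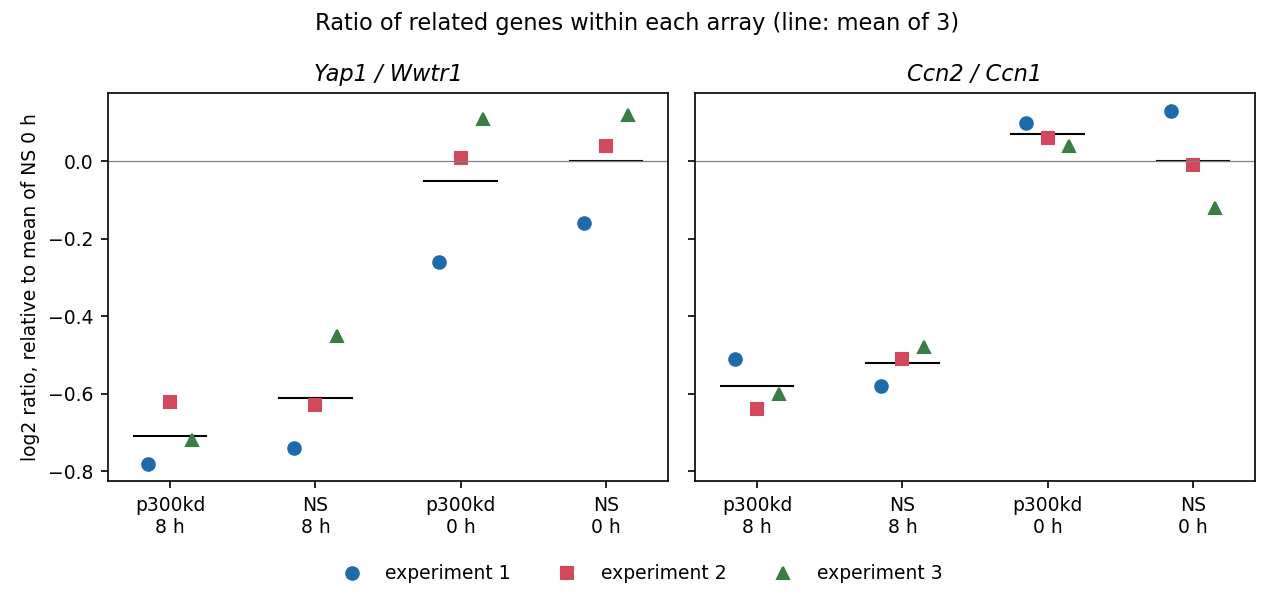
Log2 ratio of Yap1 to Wwtr1 and of Ccn2 to Ccn1 within each of the 12 arrays, relative to the mean of NS cells at 0 h. Points are experiments and lines the mean of 3. In both panels the arrays at 8 h lie below the arrays at 0 h, and p300kd and NS cells lie close together at each time.

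Tead1 (probe set 10710006, chromosome 1) encodes the TEAD factor long known to bind promoters of cardiac muscle genes. Log2 intensity of this gene was 11.60, 11.63 and 11.67 in p300kd cells at 8 h, against 11.79, 11.68 and 11.65 in p300kd cells at 0 h. The NS arrays read 11.64, 11.60 and 11.49 at 8 h, against 11.81, 11.68 and 11.70 at 0 h. The groups overlapped in p300kd cells, and in NS cells all 3 arrays at 8 h were below all 3 at 0 h, as for 21.2% of all genes. The change was -0.07 in p300kd cells (95% interval -0.22 to 0.08, adjusted p 0.453) and -0.15 in NS cells (-0.30 to 0.00, adjusted p 0.126). With the experiment as a fixed block, which compares arrays within an experiment, the NS value passed (adjusted p 0.0326) and the p300kd value did not (adjusted p 0.292). A random block, with an estimated correlation of 0.317 between arrays of an experiment, also called the NS value (adjusted p 0.0491) and not the p300kd value (0.328). Centring each array on its median turned the p300kd value to 0.03.

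Tead3 (probe set 10831909, chromosome 20) encodes another TEAD factor. Its log2 intensity was 9.86, 9.59 and 9.52 in p300kd cells at 8 h, against 10.06, 9.69 and 9.76 in p300kd cells at 0 h. In NS cells it was 9.73, 9.57 and 9.45 at 8 h, against 10.03, 9.82 and 9.55 at 0 h. Groups overlapped, yet the 8 h array was the lower of the pair in all 3 experiments of both siRNAs, and experiment 1 was the highest in 4 of 4 groups. The change was -0.18 in p300kd cells (95% interval -0.49 to 0.12, adjusted p 0.352) and -0.21 in NS cells (-0.52 to 0.10, adjusted p 0.299). A fixed block called both, at adjusted p 0.0498 in p300kd cells and 0.0275 in NS cells, and the random block called neither (adjusted p 0.141 and 0.0976 with the estimated correlation, same order). Under the fixed block 5 of 8 members fell in p300kd cells, where 22.8% of all genes fell and 23% rose, and 6 of 8 in NS cells, where 21.9% fell and 21.6% rose. Under the random block 4 of 8 fell in p300kd cells, where 21.7% of all genes fell, and 5 of 8 in NS cells, where 20.5% did.

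Lats2 (probe set 10784164, chromosome 15) encodes a kinase that phosphorylates YAP and TAZ and is a reported target of both in human and mouse cells. The log2 values were 11.63, 11.61 and 11.58 in p300kd cells at 8 h, against 11.81, 11.71 and 11.59 in p300kd cells at 0 h. NS cells gave 11.57, 11.47 and 11.32 at 8 h, against 11.47, 11.63 and 11.53 at 0 h. The groups overlapped at both siRNAs. The change was -0.10 in p300kd cells (95% interval -0.27 to 0.08, adjusted p 0.386) and -0.09 in NS cells (-0.26 to 0.09, adjusted p 0.474). Both values turned to 0.01 and 0.02, in the same order, when each array was centred on its median.

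Amotl2 (probe set 10912584, chromosome 8) gave the smallest adjusted p of the members in both Dox comparisons, by limma without a block and under the random block. Under the fixed block it came after Ccn2, with adjusted p 1.57e-07 against 7.56e-09 in p300kd cells and 2.34e-07 against 3.41e-08 in NS cells. Its log2 intensity was 9.99, 9.82 and 9.70 in p300kd cells at 8 h, against 10.86, 10.68 and 10.92 in p300kd cells at 0 h. The NS arrays read 9.82, 9.74 and 9.74 at 8 h, against 10.68, 10.77 and 10.74 at 0 h. All arrays at 8 h lay below all arrays at 0 h, and arrays of a group lay close together. Such a gap within an siRNA was found for 21.6% of all genes in p300kd cells and 21.2% in NS cells. Amotl2 fell by 0.98 in p300kd cells (SE 0.0915, adjusted p 8.54e-06), a 1.98-fold drop, and by 0.96 in NS cells (SE 0.0915, adjusted p 1.21e-05), a 1.95-fold drop. The log2 ratio of Amotl2 to Lats2 within arrays, relative to NS cells at 0 h, lay between -1.07 and -0.77 in the 6 arrays at 8 h and between -0.22 and 0.13 in the 6 at 0 h.

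Ccn2 (probe set 10717233, chromosome 1) had the largest change of the members. Log2 intensity of this gene was 11.69, 11.20 and 10.92 in p300kd cells at 8 h, against 12.96, 12.71 and 12.72 in p300kd cells at 0 h. In NS cells it was 11.46, 11.34 and 11.07 at 8 h, against 12.83, 12.79 and 12.26 at 0 h. The highest array at 8 h was below the lowest at 0 h, and such a gap between the 3 arrays at 8 h and the 3 at 0 h was found for 21.6% of all genes in p300kd cells and 21.2% in NS cells. Ccn2 fell by 1.53 in p300kd cells (SE 0.189, adjusted p 7.02e-05), a 2.89-fold drop, and by 1.34 in NS cells (SE 0.189, adjusted p 0.000221), a 2.53-fold drop. Experiment 1 was the highest in 4 of 4 groups and experiment 3 the lowest in 3 of 4, and with the experiment as a block the SE was 0.0891.

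Ccn1 (probe set 10827231, chromosome 2) moved less than Ccn2. Its log2 intensity was 12.57, 12.20 and 11.89 in p300kd cells at 8 h, against 13.23, 13.02 and 13.05 in p300kd cells at 0 h. NS cells had 12.40, 12.21 and 11.91 at 8 h, against 13.07, 13.17 and 12.75 at 0 h. No array at 8 h reached the lowest array at 0 h, and within an siRNA such a gap was found for 21.6% of all genes in p300kd cells and 21.2% in NS cells. Ccn1 fell by 0.88 in p300kd cells (SE 0.164, adjusted p 0.00134), a 1.84-fold drop, and by 0.82 in NS cells (SE 0.164, adjusted p 0.00255), a 1.76-fold drop. Without experiment 2 the NS value was -0.75 and no longer passed (adjusted p 0.0881), while the p300kd value was -0.91 and did (adjusted p 0.0426). The change was negative in 3 of 3 experiments for both siRNAs.

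The log2 ratio of Ccn2 to Ccn1 within arrays, relative to NS cells at 0 h, was -0.51, -0.64 and -0.60 in p300kd cells at 8 h, against 0.10, 0.06 and 0.04 in p300kd cells at 0 h. In NS cells the ratio was -0.58, -0.51 and -0.48 at 8 h, against 0.13, -0.01 and -0.12 at 0 h. Ccn2 was therefore the more lowered of the 2 CCN genes in every experiment of both siRNAs. The spread of this ratio within a group was smaller than that of either gene.

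The other CCN family genes came from a list of 4, of which 3 were measured. Of the 3, 1 fell and 0 rose in p300kd cells, where 17.5% of all genes fell, and likewise in NS cells, where 16.4% did. It was Ccn5, a CCN protein without the C-terminal domain of its relatives, which fell by 0.78 in p300kd cells (SE 0.0827, adjusted p 2.16e-05) and by 0.61 in NS cells (SE 0.0827, adjusted p 0.00017). Ccn3 had changes of 0.24 in p300kd cells (adjusted p 0.396) and 0.25 in NS cells (adjusted p 0.404), which passed under the fixed block (0.00237 and 0.00229, same order) and not under the random one (adjusted p 0.125 and 0.123 with the estimated correlation). Ccn4 had 0.17 (adjusted p 0.732) and 0.38 (adjusted p 0.432, 0.0076 with the fixed block and 0.151 with the random one), in the same order. The median of the 3 was 0.17 in p300kd cells and 0.25 in NS cells.

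Of 21 other genes reported as YAP or TAZ targets, mainly in human and mouse cells, 13 were measured. Of these 13, 3 fell and 1 rose in p300kd cells (2 rose under either block), and 4 fell and 2 rose in NS cells. Over all genes 17.5% fell and 13.9% rose in p300kd cells, and 16.4% fell and 11.2% rose in NS cells. The median of the 13 was -0.07 in p300kd cells and -0.08 in NS cells. Ankrd1, a stress-responsive cofactor gene of heart muscle, fell by 0.87 in p300kd cells (SE 0.136, adjusted p 0.000411) and by 0.70 in NS cells (SE 0.136, adjusted p 0.00207). Thbs1, which encodes the matrix protein thrombospondin 1, fell by 0.45 (adjusted p 0.0102) and by 0.35 (adjusted p 0.0432), and Asap1, an Arf GTPase-activating protein gene, fell by 0.42 (adjusted p 0.0177) and by 0.44 (adjusted p 0.0161), p300kd cells first. Both were lost without experiment 2 or experiment 3 in either siRNA, with adjusted p up to 0.104 and 0.24 for Thbs1 and 0.188 and 0.151 for Asap1, and without some single arrays. The Thbs1 call in NS cells was lost in 9 of 22 alternative fits in all, among them centring on the array median and a prior without a trend. Igfbp3, a secreted binder of insulin-like growth factors, rose by 0.45 in p300kd cells (adjusted p 0.0011) and by 0.46 in NS cells (adjusted p 0.00117). Without experiment 2 its adjusted p was 0.0537 in p300kd cells and 0.0617 in NS cells. In NS cells Gadd45a also fell, by 0.40 (adjusted p 0.0161), a call lost in 5 of 22 alternative fits. Nuak2 also rose there, by 0.30, with an SE of 0.0908 and a 95% interval of 0.11 to 0.50 in the fit without a block. The adjusted p of Nuak2 under the random block, 0.00873, is not on the same footing as the values above. In p300kd cells the changes of Gadd45a and Nuak2 were -0.21 and 0.12, and neither passed.

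The TEAD, VGLL and angiomotin relatives of the members formed a list of 7, of which 3 were measured. Vgll4, which encodes a TEAD-binding repressor that competes with YAP, fell by 0.39 in p300kd cells (SE 0.101, adjusted p 0.00967) and by 0.40 in NS cells (SE 0.101, adjusted p 0.0105). It was the 1 gene of the 3 that passed, in p300kd cells, where 31.4% of all genes were called, and in NS cells, where 27.5% were. Vgll4 missed the threshold without experiment 2 or experiment 3, with adjusted p up to 0.156 in both siRNAs.

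Upstream kinases, scaffolds and regulators formed a list of 23, of which 20 were measured. In p300kd cells 6 fell and 1 rose (10 and 3 under the fixed block, 10 and 1 under the random one), with a median of -0.16, and in NS cells 6 fell and 2 rose (10 and 2 under either block), with a median of -0.18. Over all genes 17.5% fell and 13.9% rose in p300kd cells, and 16.4% fell and 11.2% rose in NS cells. The falling share was 22.8% and 21.9% under the fixed block and 21.7% and 20.5% under the random one, p300kd cells first. Taok2, a kinase that can activate the Hippo kinases, fell by 1.19 in p300kd cells (SE 0.112, adjusted p 9.78e-06) and by 1.06 in NS cells (SE 0.112, adjusted p 2.63e-05). Limd1, which encodes a LIM protein that binds and restrains LATS kinases, fell by 0.74 in p300kd cells (SE 0.0869, adjusted p 4.69e-05) and by 0.69 in NS cells (SE 0.0869, adjusted p 0.000101). Ajuba, its relative with the same known role, fell by 0.44 (adjusted p 0.00268) and by 0.50 (adjusted p 0.00134), p300kd cells first, and without experiment 3 the p300kd value missed the threshold (0.0666). Stk38l, a kinase of the LATS-related NDR group, fell by 0.60 in p300kd cells (adjusted p 0.00973) and by 0.96 in NS cells (adjusted p 0.000584), and the p300kd call was lost without experiment 1 or 2, with adjusted p up to 0.0849. The rises were small: Nf2, the gene of the upstream tumour suppressor merlin, rose by 0.30 in p300kd cells (adjusted p 0.0229), and Mob1a, a LATS cofactor, and Ptpn14, a phosphatase gene, rose in NS cells by 0.27 (adjusted p 0.0289) and 0.26 (adjusted p 0.0268). Each of these 3 rises was lost in some fits without 1 array or 1 experiment, with adjusted p up to 0.181, 0.177 and 0.157 in that order. The genes that fell include known activators (Taok2) and known inhibitors (Limd1, Ajuba) of the LATS kinases.

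**Figure D3:**
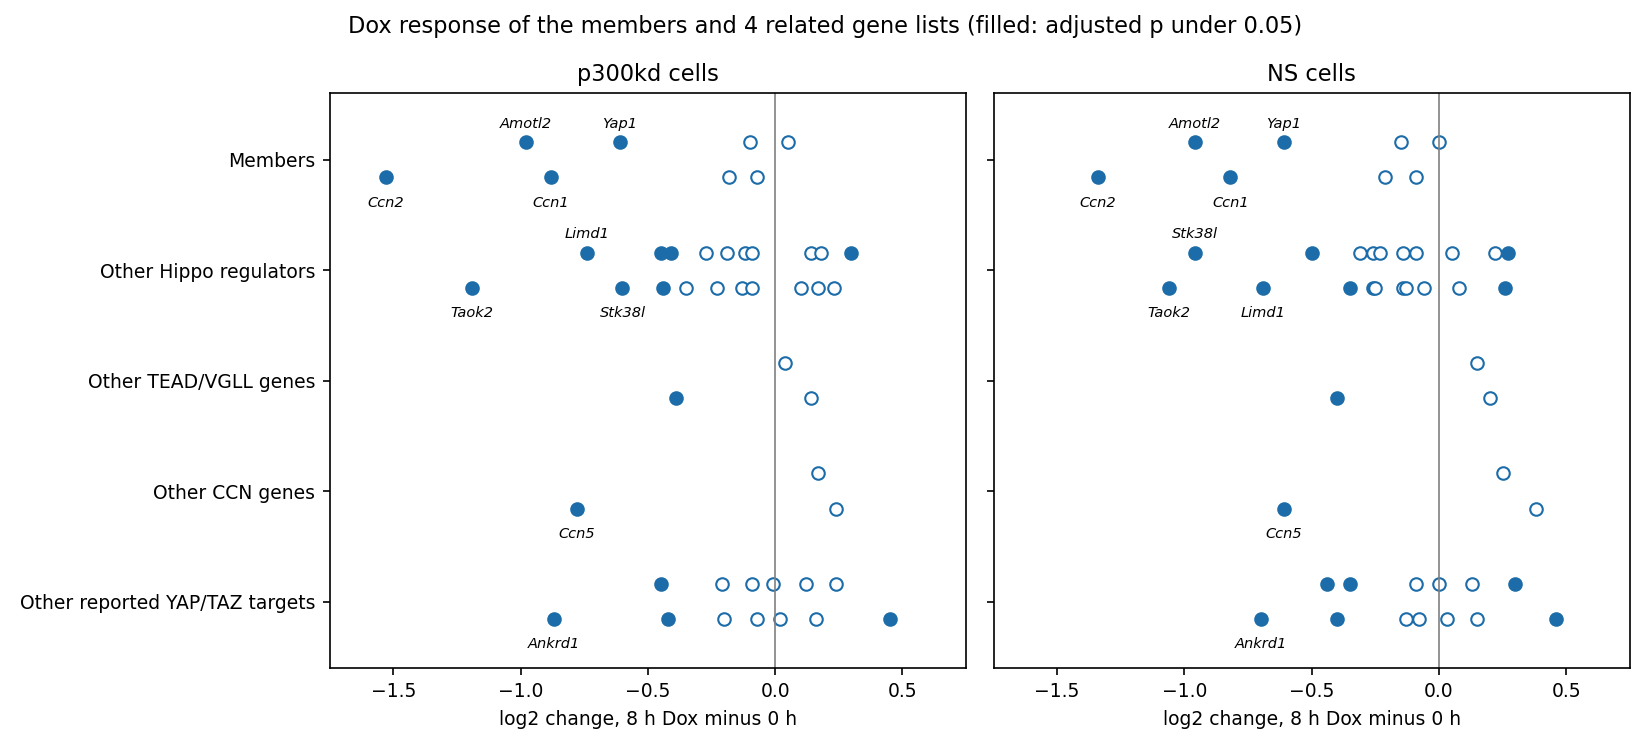
Log2 change after 8 h of Dox for the 8 members and the measured genes of the 4 related lists, 1 point per gene, with p300kd cells and NS cells in separate panels and filled points for adjusted p under 0.05. Ccn2 is the leftmost member in both panels. The rightmost is Wwtr1, at 0.05 in p300kd cells and 0.00 in NS cells, and each other list spreads to both sides of 0.

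The p300 siRNA lowered its own target. Ep300 log2 intensity ranged from 9.64 to 10.10 in p300kd cells at 8 h, against 10.72 to 10.86 in NS cells at 8 h, and from 10.02 to 10.41 in p300kd cells at 0 h, against 11.01 to 11.16 in NS cells at 0 h. Averaged over both times it was at 52.4% of the NS level (log2 -0.93, SE 0.0894, adjusted p 0.00212). That call was lost without experiment 2 (-0.88, adjusted p 0.348) or without experiment 3, and was kept under the fixed block (adjusted p 3.02e-07). After Dox the Ep300 change was -0.31 in p300kd cells (adjusted p 0.0782) and -0.34 in NS cells (adjusted p 0.0641), which passed under the fixed block (0.00249 and 0.00153) and the random block (0.0121 and 0.00844), same order.

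None of the 8 members differed between p300kd and NS cells by limma at 0 h, where 0.0207% of all genes were called, at 8 h, where 0.0483% were, or averaged over both times, where 1.25% were. At an unadjusted p under 0.05 the counts were 0, 0 and 1 of the 8 members, in that order, and 1008, 1156 and 1846 of all genes. The 1 member was Lats2, at 0.16 averaged over both times (95% interval 0.03 to 0.28, adjusted p 0.251). Its difference was 0.15 at 8 h, where all 3 p300kd arrays were above all 3 NS arrays, as for 4.76% of all genes, and 0.16 at 0 h. It was positive in 3 of 3 experiments and passed under the fixed block (adjusted p 0.0321), where 9.52% of all genes were called, 3.23% higher and 6.29% lower. Under the random block, where 5.64% of all genes were called, Lats2 did not pass (adjusted p 0.0669 with the estimated correlation).

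For the genes that fell after Dox, the siRNA differences at 8 h were -0.02 for Ccn2 (95% interval -0.43 to 0.39), 0.05 for Ccn1 (-0.31 to 0.40), 0.07 for Amotl2 (-0.13 to 0.27) and -0.10 for Yap1 (-0.26 to 0.06). At 0 h they were 0.17 for Ccn2 (-0.24 to 0.58), 0.11 for Ccn1 (-0.25 to 0.46), 0.09 for Amotl2 (-0.11 to 0.28) and -0.10 for Yap1 (-0.26 to 0.06). Yap1 was lower in all 3 p300kd arrays than in all 3 NS arrays at 0 h, as were 6.82% of all genes. Its 2 groups overlapped at 8 h. For the CCN genes these intervals, from the fit without the block, are wide, so that small effects of the siRNA were not detectable in it. With the experiment as a fixed block the SE was 0.0891 for Ccn2 (0.189 without it) and 0.082 for Ccn1 (0.164 without it). Neither gene passed under that block, at 8 h (adjusted p 0.947 and 0.842) or at 0 h (0.395 and 0.635), Ccn2 first. For Wwtr1, Tead1 and Tead3 the differences lay between -0.05 and 0.07 at both times.

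The Dox response of p300kd cells was also compared with that of NS cells, as the change in p300kd cells minus the change in NS cells. No member and no gene of the 14507 passed (0% called) by limma, with or without the block, and 0 members and 228 genes had an unadjusted p under 0.05. The difference was -0.19 for Ccn2 (95% interval -0.77 to 0.39), -0.06 for Ccn1 (-0.56 to 0.44), -0.02 for Amotl2 (-0.30 to 0.26) and 0.00 for Yap1 (-0.23 to 0.23). The larger fall of Ccn2 in p300kd cells was therefore within the error, and it was seen in 2 of 3 experiments. The median SE over all genes was 0.134 for this difference and 0.0951 for a comparison of 2 groups.

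**Figure D4:**
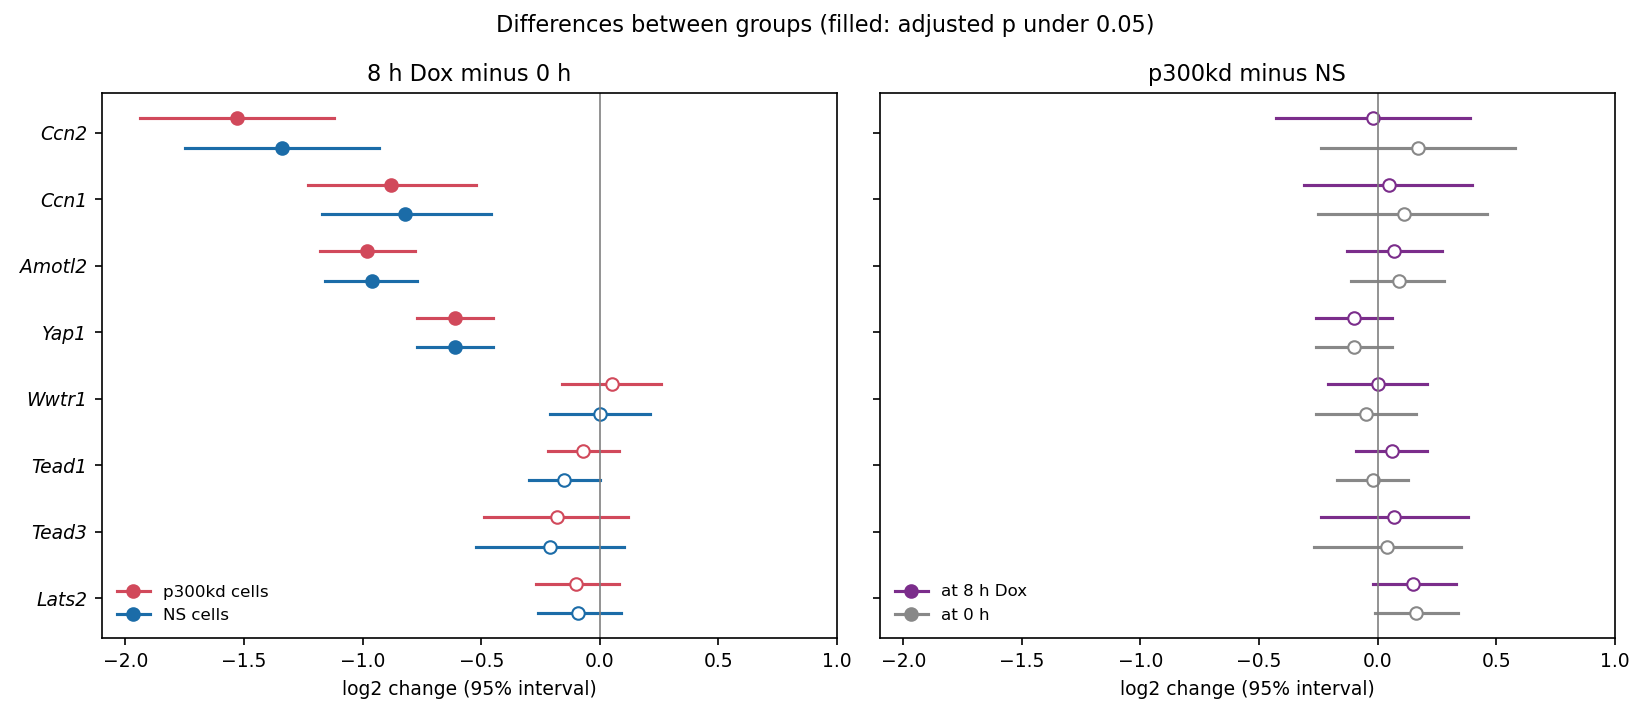
Log2 changes of the 8 members with 95% intervals, after Dox in p300kd and NS cells and for p300kd minus NS cells at 8 h and 0 h; filled points have an adjusted p under 0.05. The Dox intervals of Ccn2, Ccn1, Amotl2 and Yap1 exclude 0 for both siRNAs, and all siRNA intervals include 0.

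Among the related lists, averaged over both times, the p300 siRNA called 1 gene, where 1.02% of all genes were lower in p300kd cells and 0.227% higher. Map4k4, a kinase that can act on LATS beside the MST kinases, was lower by a log2 change of -0.69 (SE 0.120, adjusted p 0.024), with values of -0.41, -0.87 and -0.80 in experiments 1 to 3. This call was lost in 8 of the 21 alternative fits, all of which left out 1 array or 1 experiment, with adjusted p up to 0.529. No gene of the 13 measured targets, the 3 other CCN genes or the 3 cofactor genes passed, while under the fixed block 3 targets (Nt5e at -0.47, Gadd45a at -0.33 and Axl at -0.18) and Ccn4 (-0.32) were lower and the regulator Ajuba (0.22) was higher. Under that block 6.29% of all genes were lower and 3.23% higher. The random block also called Nt5e, Gadd45a and Ajuba, and not Axl (adjusted p 0.139 with the estimated correlation) or Ccn4 (adjusted p 0.236).

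The genes whose pattern over the 12 arrays was nearest to a member were found by the root mean square (RMS) difference between log2 values centred on each gene's own mean. Nearest to Ccn2 were Nuak1 (RMS 0.148), Arhgef39 (0.152) and Smad6 (0.152). Ccn1 ranked 88 by nearness to Ccn2 (0.301) and Amotl2 ranked 96 (0.304). Nearest to Ccn1 were Ctif (0.0885), Zfp36 (0.11) and Tgfb3 (0.12), with Amotl2 at rank 62 (0.17). Nearest to Amotl2 were Brd8 (0.0748), Irf2bp1 (0.0802) and Clcn6 (0.0825), and nearest to Wwtr1 were Eprs1 (0.0527), Dse (0.055) and Clasp2 (0.0562). By this measure the members that fell had many genes outside the pathway closer to them than each other. Values were centred and not scaled, so genes that fell by unlike amounts lie apart even where they move together. Shared regulation was not tested.

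The labelled cell type was checked with marker lists. All 10 myocyte markers, all 11 fibroblast markers and all 7 smooth muscle and pericyte markers had a mean log2 intensity above that of the median gene (8.57), against 3 of 8 macrophage and 0 of 7 endothelial markers. Myocyte markers ranged from 11.54 (Ryr2) to 14.15 (Actc1) and fibroblast markers from 8.91 (Tcf21) to 13.75 (Fn1), although probe sets differ in brightness and give no cell share. Fibroblast RNA matters here because CCN genes are known to be expressed in fibroblasts. The summed intensity of the 11 fibroblast markers was 48819 to 57452 in p300kd cells at 8 h, against 48751 to 58679 in p300kd cells at 0 h, and 54536 to 60031 in NS cells at 8 h, against 56143 to 61378 in NS cells at 0 h. These ranges overlapped, and 1 of the 11 rose and 1 fell after Dox in each siRNA. Under the fixed block 3 rose and 2 fell in p300kd cells, and 1 rose and 2 fell in NS cells. Under the random block 2 rose and 2 fell in p300kd cells, and 1 rose and 1 fell in NS cells. Over all genes the main fit had 17.5% falling and 13.9% rising in p300kd cells, and 16.4% and 11.2% in NS cells. Averaged over both times, no fibroblast marker passed between p300kd and NS cells by limma, while 6 of 11 were lower in p300kd cells under the fixed block and 4 of 11 under the random one. Over all genes 6.29% were lower under the fixed block, and the random one called 5.64% in either direction. None of the 10 myocyte markers was called after Dox in either siRNA, and under the fixed block 2 rose and 1 fell in p300kd cells and 0 in NS cells. Under the random block 1 myocyte marker rose and 0 fell in p300kd cells, and 0 were called in NS cells.

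The summed endothelial markers were lower after Dox, at 1190 to 1242 in p300kd cells at 8 h, against 1476 to 1492 in p300kd cells at 0 h, and at 1257 to 1413 in NS cells at 8 h, against 1596 to 1675 in NS cells at 0 h, and 2 of 7 fell in each siRNA. Under either block 3 of 7 fell in p300kd cells, and 4 fell and 1 rose in NS cells. Over all genes 17.5% fell and 13.9% rose after Dox in p300kd cells, and 16.4% fell and 11.2% rose in NS cells. Under the fixed block 22.8% fell and 23% rose in p300kd cells, and 21.9% fell and 21.6% rose in NS cells. Under the random one 21.7% and 20.5% fell, in the same order. These shares also stand beside the smooth muscle and macrophage counts after Dox given next. Summed smooth muscle markers were 33971 to 45058 in p300kd cells at 8 h, against 38926 to 47108 at 0 h, and 34919 to 43374 in NS cells at 8 h, against 36089 to 45455 at 0 h, with 2 of 7 lower in each siRNA. Under the fixed block 2 rose and 3 fell in p300kd cells, and 2 rose and 2 fell in NS cells. Under the random block 1 rose and 3 fell in p300kd cells, and 0 rose and 2 fell in NS cells. The largest falls were those of Cspg4, at -1.12 in p300kd cells and -1.09 in NS cells, and Pdgfrb, at -0.93 and -0.85. The 2 that rose under the fixed block were Rgs5, at 0.65 in p300kd cells and 0.43 in NS cells, and Myh11, at 0.29 and 0.28. Of these rises the random block called only that of Rgs5 in p300kd cells (adjusted p 0.00666). All of these genes were named after their values were seen. Summed macrophage markers were 6394 to 8410 in p300kd cells at 8 h, against 7941 to 10462 in NS cells at 8 h, and 5542 to 8668 in p300kd cells at 0 h, against 8348 to 10276 in NS cells at 0 h. Averaged over both times 2 of the 8 were lower in p300kd cells, as were 1.02% of all genes. Under the fixed block 7 were lower, as were 6.29% of all genes, and under the random one 6 were. The random block called 5.64% of all genes in either direction. After Dox 1 of the 8 rose and 2 fell in p300kd cells (3 and 2 under the fixed block, 1 and 2 under the random one). In NS cells 0 rose and 1 fell. Csf1r changed by -0.66 in p300kd cells (adjusted p 0.00106) and by -0.54 in NS cells (adjusted p 0.00451). The part of these cell types in the changes of the Hippo genes was not tested.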

How the data were processed

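Total RNA of 12 cultures was hybridised to Affymetrix whole-transcript arrays, and groups and replicate numbers were read from the labels. The deposited values are intensity values per probe set on a linear scale (8.05 to 25315), made by the authors with Affymetrix Expression Console 1.1 and RMA, per the submitters' processing notes. The notes do not say how they became linear, so linearity was judged by their range, and log2 was computed here. Medians of log2 intensity per array lay between 7.73 and 7.80, and precision is limited by having 3 arrays a group.

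Of 29214 probe sets, the platform annotation gave 15310 exactly 1 symbol. The brightest probe set was used for each of 526 genes with several, which left 14507 genes, 14481 of them with a current Entrez identifier (GRCr8). No filter on level was applied. All 12 arrays were fitted as 4 group means with limma 3.58.1 in R 4.3.3 (lmFit, eBayes with a trend, two-sided), tested on simulated data, with Benjamini-Hochberg adjustment over the genes of each comparison. Calls were at an adjusted p under 0.05.

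The replicate numbers pair the arrays: the design text states 3 experiments, and deviations from group means correlated at 0.172 to 0.689 in the 18 same-numbered pairs (median 0.504). The other pairs had a median of -0.271, which adds no separate evidence. Deviations cancel out within a group, so positive values in same-numbered pairs force negative ones elsewhere. The experiment as a fixed block, and as a random block with an estimated correlation of 0.317, was therefore given beside members and list counts whose calls it changed.

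Members, lists and tests were chosen with earlier results of these data known. All members and Ep300 were named, up to 4 called genes per direction and 2 others from each list, and the 3 genes nearest to 4 members. Alternatives were the block (fixed or random), fitting only the groups compared, leaving out dim genes, centring arrays on their median, a prior without a trend, averaging probe sets, and leaving out each array or experiment. Figures were drawn with matplotlib 3.10.9.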

Additional observations from a re-analysis of the deposited data

How the results depend on the processing

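The falls of Ccn2, Ccn1, Amotl2 and Yap1 after Dox were refitted under 22 alternatives in each siRNA. Of the 176 values, 175 kept direction and call, 1 missed the threshold (Ccn1 in NS cells without experiment 2) and 0 reversed. Leaving out arrays or experiments left 4 members called in p300kd cells and 3 to 4 in NS cells. With the experiment as a fixed replicate block, genes called were 6318 for Dox in NS cells (3993 without), 457 for the siRNA at 8 h (7 without), 390 at 0 h (3 without) and 1381 averaged (181 without), with 1 member called in the last. The fixed block changed no other member's call than those given above for Tead1, Tead3 and Lats2, and the random block none but that of Tead1 in NS cells. A random block gave 92 genes for the siRNA at 8 h, 125 at 0 h and 818 averaged, fitting only the groups compared gave 0 at both times, and leaving out dim genes gave 4 at 8 h. Without 1 array or experiment, genes called ranged from 2270 to 4848 for Dox in p300kd cells (main 4561), 1780 to 4267 in NS cells, 0 to 17 for the siRNA at 8 h, 0 to 20 at 0 h and 0 to 372 averaged. The lowest Dox count in NS cells came without experiment 2, with fewer arrays. Centring each array on its median moved the median of all genes after Dox to 0.145 in p300kd cells (0.041 without) and 0.138 in NS cells (0.036 without). The share of called genes that rose became 68.5% in p300kd cells (44.2% without) and 67.4% in NS cells (40.5% without), and 12.5% for the siRNA at 8 h (0% without). It turned Lats2 to 0.01 and Tead1 to 0.03 for Dox in p300kd cells and Lats2 to 0.02 in NS cells. Differences near 0 changed sign without some arrays or experiments. The Dox change of Wwtr1 in p300kd cells ranged from -0.06 to 0.15. For the siRNA at 8 h, Tead1 ranged from -0.01 to 0.11, Tead3 from -0.03 to 0.14, Amotl2 from -0.01 to 0.14, Ccn2 from -0.23 to 0.15 and Ccn1 from -0.13 to 0.21. At 0 h, Wwtr1 ranged from -0.15 to 0.03, Tead1 from -0.06 to 0.02, Tead3 from -0.08 to 0.16, Ccn2 from -0.01 to 0.30 and Ccn1 from -0.02 to 0.23. Averaged, Wwtr1 ranged from -0.07 to 0.02, Tead1 from -0.01 to 0.04, Tead3 from -0.01 to 0.11, Ccn2 from -0.03 to 0.17 and Ccn1 from -0.01 to 0.16. For the difference between the Dox responses, Wwtr1 ranged from -0.09 to 0.15, Tead3 from -0.09 to 0.15, Lats2 from -0.11 to 0.12, Amotl2 from -0.11 to 0.08, Ccn2 from -0.40 to 0.02, Ccn1 from -0.23 to 0.10 and Ep300 from -0.10 to 0.15. The causes were not tested.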

Other observations

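Members differed between experiments within a group as well as between groups. Tead3 and Ccn2 were highest in experiment 1 in 4 of 4 groups, and Lats2, Tead1 and Ccn1 in 3 of 4. Yap1 was lowest in experiment 1 in 4 of 4 groups, where its levels were 10.14 in p300kd cells and 10.18 in NS cells at 8 h, and 10.79 in p300kd cells and 10.85 in NS cells at 0 h. Experiment 3 was lowest in 3 of 4 groups for Tead3, Lats2, Ccn2, Ccn1 and Wwtr1. With the experiment as a block, the SE of a 2-group comparison was 0.082 for Ccn1 (0.164 without it), 0.0725 for Tead3 (0.142 without it) and 0.0575 for Yap1 (0.0743 without it).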
